A study of Mus musculus with 2 samples.

Results

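The replication-dependent histone genes supply the histones that package newly copied DNA. They were taken here as the rows whose identifier belongs to a protein-coding gene of the GENCODE M21 annotation with a symbol beginning Hist1h, Hist2h, Hist3h or Hist4h. Of 67 such names 64 had a row in both gene tables, out of 43346 annotated genes, and Hist1h2bh, Hist1h2bm and Hist2h2bb had none. The 64 genes comprised 6 H1, 18 H2a, 15 H2b, 12 H3 and 13 H4 genes. By cluster there were 52 Hist1 genes on chromosome 13, 9 Hist2 genes, 2 Hist3 genes on chromosome 11 and 1 Hist4 gene.

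RNA longer than 200 nucleotides was sequenced from the hindbrain of B6NCrl mouse embryos at 10.5 days of development. The only group held 2 biological replicates, which were pools of 69 embryos (replicate 1) and 51 embryos (replicate 2) of both sexes, with the same donor ID in the labels. The input was 10 ng of RNA a library, to which spike-in RNAs were added. The group had no second condition, so no test was possible, and every SD describes the spread between these 2 pools only.

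Pairs of H2A, H2B, H3 and H4 molecules form the octamer around which DNA is wrapped, and H1 binds the linker between octamers. The genes of this class are transcribed mainly in S phase under the coactivator NPAT, and most have no introns. Their mRNAs end in a conserved stem-loop in place of a poly(A) tail, which the stem-loop binding protein SLBP holds from processing to translation. In the developing hindbrain, the dividing progenitors of the neural tube are a main site of their use, while neurons that have left the cell cycle rely on variant histones made from polyadenylated mRNAs.

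The 3′ ends of 10 genes are shown because the stem-loop is the element that sets this class apart. Each line gives 30 bases of the GENCODE M21 transcript up to the end of the stem-loop, 5′ to 3′, with the stem-loop in capitals. The pattern of the histone stem-loop was searched for in the 150 bases after the stop codon.
Hist1h2ap: agaaaaaaaaaaaaGGCTCTTTTCAGAGCC
Hist1h2ao: agaaaaaaaaaaaaGGCTCTTTTCAGAGCC
Hist1h2ae: gtaaaaaaaacaaaGGCTCTTTTCAGAGCC
Hist1h4d: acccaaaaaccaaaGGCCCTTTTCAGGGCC
Hist1h1e: cccaacaacccaaaGGCTCTTTTCAGAGCC
Hist2h2aa2: cgagctcctaaaaaGGCTCTTTTCAGAGCC
Hist1h2ag: tgatcgccaacaaaGGCTCTTTTCAGAGCC
Hist3h2a: ttacagacaccaaaGGCTCTTTTCAGAGCC
Hist3h2ba: gcccccaacccaaaGGCTCTTTTCAGAGCC
Hist1h1c: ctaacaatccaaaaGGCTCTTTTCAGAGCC
The stem-loop was found in 44 of the 64 genes and began 22 to 59 bases after the stop codon (median 32.5). In 14 genes the model ends at the stop codon or within 30 bases of it, so these letters could not lie in it. There were 8 different sequences. The one shown for 9 of the 10 genes, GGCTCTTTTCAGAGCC, was in 24 genes of types H1, H2a, H2b and H3. The sequence shown for Hist1h4d, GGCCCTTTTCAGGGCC, was in 7 genes, and all of them encode H4. The 3′ ends of Hist1h2ap and Hist1h2ao also carry a run of 12 A directly before the stem-loop. Among the 44 genes whose M21 model has the length that was quantified, the other 42 had a longest run of 8 or fewer. A run of 12 or more was present in 5.31% of protein-coding M21 transcripts. The priming of the cDNA is not given in the sources used here; what part that run had in the values of both genes was not tested.

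Levels are given as TPM, a unit that divides each gene's counts by its effective length and scales all rows to the same total, so that genes of different length can be compared. The 64 genes summed to 6521 TPM in replicate 1 and 6675 TPM in replicate 2, which was 0.750% and 0.724% of the TPM of annotated genes. Their counts were 0.185% and 0.176% of the gene counts, which totalled 38170078 and 36382223 in rounded form. In both libraries 48 of the 64 genes, or 75%, reached 1 TPM, beside 58.8% of all protein-coding genes. The median gene of the class lay at 4.88 and 6.50 TPM, above the medians of protein-coding genes (4.01 and 3.86 TPM). By mean level, 3 genes were above 100 TPM, 17 lay between 10 and 100, 31 between 1 and 10, and 13 below 1. The share of TPM in spike-ins was 13.0% in replicate 1 and 7.82% in replicate 2. In a bulk sample, fewer cells of a kind and less RNA per cell cannot be told apart.

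**Figure D1:**
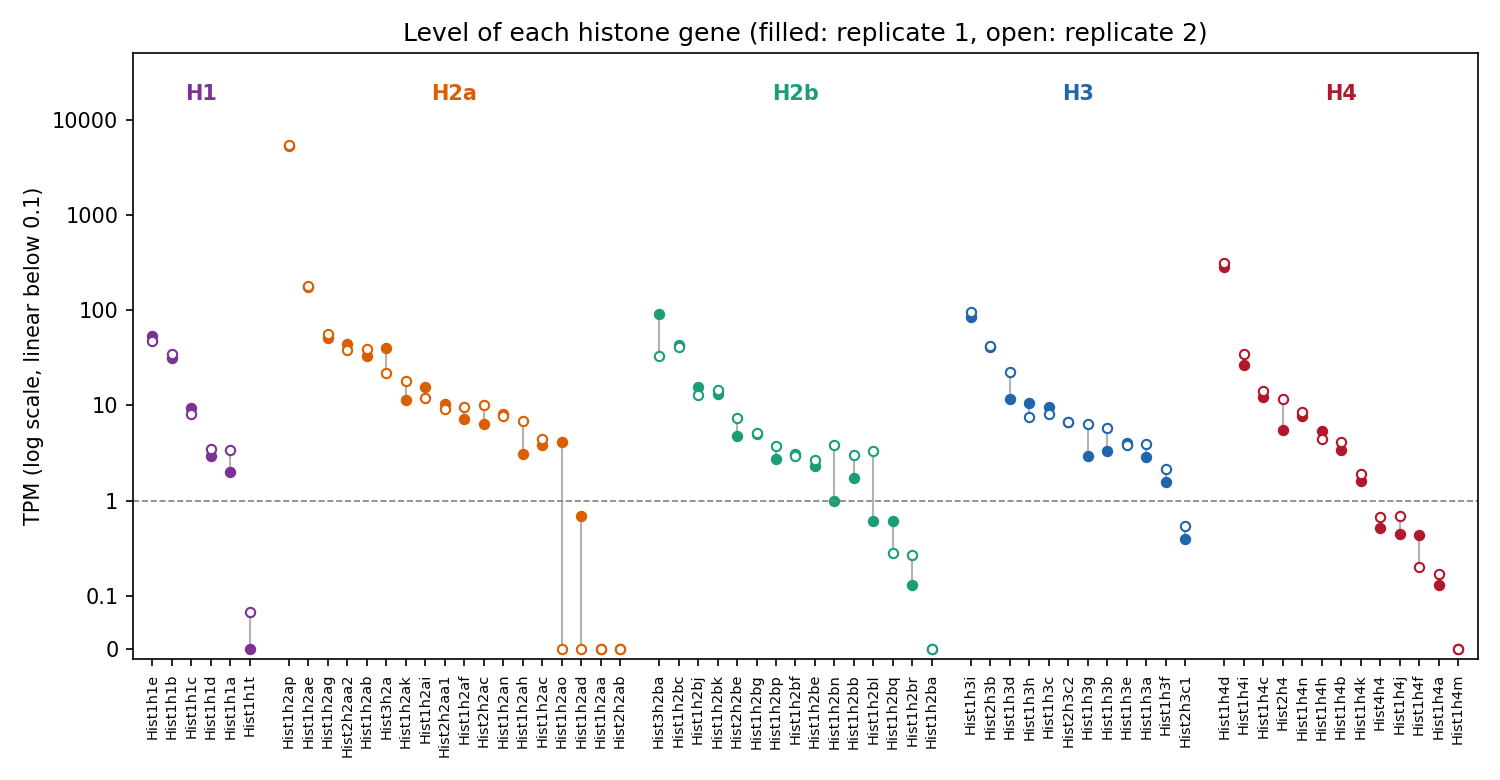
Level of each of the 64 histone genes by type, in TPM on a log scale that is linear below 0.1, with filled points for replicate 1 and open points for replicate 2. The dashed line marks 1 TPM. Hist1h2ap lies at 5299 and 5433 TPM, and the next gene, Hist1h4d, lies at 281 and 313 TPM.

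Hist1h2ap, an H2A gene, held most of the signal of the class. It measured 5299 TPM in replicate 1 and 5433 TPM in replicate 2, or 5366 ± 94.9 TPM (SD, n = 2). These values rest on 54854 and 50431 expected counts. It ranked 5 and 3 among all annotated genes and made up 81.3% and 81.4% of the TPM of the class. Hist1h4d, the next gene, was lower by a ratio of 18.8 and 17.3. Hist1h2ap lies at chr13:21833026-21833507 on the minus strand (GENCODE M21, mm10) and has a single exon.

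Hist1h2ap has a near-identical copy, Hist1h2ao, and their models differ only in how far they extend at the outer ends. The models are 482 and 480 bases long and share a run of 452 bases that covers the whole coding sequence. Hist1h2ap has 30 further bases at its 5′ end, and Hist1h2ao has 28 at its 3′ end. Of the 383 windows of 100 bases in Hist1h2ap, 353 (92.2%) also occur in Hist1h2ao, and 30 (7.83%) occur in no other M21 gene. Windows were compared within annotated transcripts only. Whether the genome differs between the copies at these outer ends was not tested beyond the promoter windows described below. Hist1h2ao was listed at 4.15 TPM in replicate 1 and 0 in replicate 2. The split between these genes therefore follows the authors' division of shared reads and is uncertain. The authors' posterior SD, a measure of how firmly shared reads were placed, was 0.139% and 0.138% of the count of Hist1h2ap. Their upper credibility bounds for Hist1h2ao were 10.4 and 7.18 TPM. These figures take the annotated ends of both models as given. Hist1h2ap also shares 263 of its windows with Hist1h2ag and 173 with Hist1h2ac.

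The identical run extends upstream of both genes. The promoter windows of RefSeq (build GRCm38.p6, 250 bases before to 50 after the start) share a run of 200 of 300 bases. The windows are offset, and the run is cut off by their edges, so the remaining bases were not compared. The windows of Hist1h2br and Hist1h2bq, the H2b genes beside Hist1h2ap and Hist1h2ao, have the same sequence throughout. The window of Hist1h2br covers part of the further 5′ bases of Hist1h2ap. The promoter of Hist1h2ap is shown because this gene dominates the class, that of Hist1h4d because it leads the H4 genes, and those of Hist3h2a and Hist3h2ba because both were lower in replicate 2. Capitals mark the CCAAT box. They also mark the TATA box, searched as TATAAA. The octamer ATTTGCAT is in capitals too. So is GGTCCG, a run known from H4 promoters. All were searched on both strands.
Hist1h2ap, chr13:21833426-21833725, minus strand: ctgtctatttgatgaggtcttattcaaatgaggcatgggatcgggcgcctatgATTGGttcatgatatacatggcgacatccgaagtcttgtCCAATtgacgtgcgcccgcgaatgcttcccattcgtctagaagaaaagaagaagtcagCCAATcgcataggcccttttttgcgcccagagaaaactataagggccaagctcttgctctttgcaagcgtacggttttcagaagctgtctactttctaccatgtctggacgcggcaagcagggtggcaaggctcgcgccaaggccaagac
Hist1h4d, chr13:23581318-23581617, plus strand: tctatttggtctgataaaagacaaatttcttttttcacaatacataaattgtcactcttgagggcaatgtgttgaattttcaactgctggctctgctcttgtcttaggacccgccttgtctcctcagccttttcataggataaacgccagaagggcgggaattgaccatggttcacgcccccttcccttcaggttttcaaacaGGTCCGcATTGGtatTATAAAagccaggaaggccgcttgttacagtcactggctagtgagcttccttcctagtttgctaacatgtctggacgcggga
Hist3h2a, chr11:58954435-58954734, plus strand: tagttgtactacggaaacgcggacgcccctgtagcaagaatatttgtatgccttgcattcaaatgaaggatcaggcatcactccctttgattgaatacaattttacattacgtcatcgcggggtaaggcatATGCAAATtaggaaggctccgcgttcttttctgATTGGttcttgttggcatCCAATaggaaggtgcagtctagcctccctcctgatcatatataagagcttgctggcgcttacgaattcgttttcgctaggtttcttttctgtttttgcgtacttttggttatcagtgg
Hist3h2ba, chr11:58948661-58948960, plus strand: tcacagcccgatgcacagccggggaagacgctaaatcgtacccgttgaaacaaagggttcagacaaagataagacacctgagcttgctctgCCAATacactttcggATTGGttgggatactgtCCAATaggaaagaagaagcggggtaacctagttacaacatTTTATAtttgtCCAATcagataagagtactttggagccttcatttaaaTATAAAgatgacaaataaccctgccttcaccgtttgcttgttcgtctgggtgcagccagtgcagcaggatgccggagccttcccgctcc
Promoters were matched for 59 of the 64 genes, and divergent neighbours share part of their windows. CCAAT was in 50 of the 59 (84.7%) and in 37.4% of all 32851 RefSeq promoters. All 6 H1, 18 H2a, 13 H2b and 10 H3 promoters held it, but 3 of 12 H4 promoters did. GGTCCG showed the opposite split, with 11 of 12 H4 promoters and 1 of 10 H3 promoters, and none of the other types. It was in 8.25% of all promoters. The octamer ATTTGCAT was in 7 of 18 H2a and 4 of 13 H2b promoters and in no H1, H3 or H4 promoter, beside 1.74% of all promoters. TATAAA was in 35 of 59 (59.3%), beside 13.6% of all. The letters TTTGGCGC were in none of the 59 and in 0.514% of all. The promoter of Hist1h2ap held CCAAT 3 times and neither TATAAA nor the octamer. The H2a genes with the octamer had a median of 8.25 TPM and those without it 9.76 TPM.

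H2A genes, whose product pairs with H2B, made up 87.6% of the TPM of the class in each library, and 14 of 18 were detected. Without Hist1h2ap their share of the remaining sum was 33.8% and 33.2%. Hist1h2ae was the next H2A gene, at 174 and 179 TPM (177 ± 3.69, SD, n = 2). Hist1h2ag followed at 51.0 and 56.5 TPM, with a posterior SD of 10.0% and 9.99% of its count, which is the authors' measure of how firmly shared reads were placed. Outside the Hist1 cluster, Hist2h2aa2 measured 44.1 and 37.8 TPM, Hist2h2aa1 10.3 and 9.21 TPM, and Hist2h2ac 6.30 and 10.2 TPM. Hist3h2a measured 39.8 and 22.0 TPM. The 18 H2A genes encode 9 different proteins. One of them is shared by 9 genes, Hist1h2ap among them, and these held 97.9% and 98.1% of H2A TPM.

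H4 was the most uniform type in protein and the second in level. All 13 H4 genes encode the same protein of 103 residues, so their mRNAs add up to a single product, at 345 and 395 TPM in sum, and 8 of the 13 genes were detected. Their share of the class was 5.30% and 5.91%, or 28.2% and 31.8% without Hist1h2ap. Hist1h4d measured 281 and 313 TPM (297 ± 22.6, SD, n = 2). Every window of its M21 transcript is unique to it, and the posterior SD was 0.0255% of its count in replicate 1 and 0 in replicate 2, so its value does not rest on divided reads. Hist1h4i measured 26.5 and 34.9 TPM and Hist1h4c 12.2 and 14.1 TPM. Hist2h4 measured 5.44 and 11.5 TPM. Hist4h4, the only gene of the Hist4 cluster, stayed below 1 TPM (0.520 and 0.670).

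The 12 H3 genes were spread more evenly, and 11 were detected. Hist1h3i led with 85.3 and 94.7 TPM (90.0 ± 6.62, SD, n = 2). Hist2h3b followed with 41.4 and 41.9 TPM and Hist1h3d with 11.7 and 22.5 TPM, while Hist2h3c2 measured 6.71 and 6.68 TPM. They encode 2 proteins of 136 residues that are at least 99.3% identical. The 4 genes of the first protein (Hist1h3i, Hist1h3h, Hist1h3g and Hist1h3a) summed to 102 and 112 TPM and the 8 genes of the second to 78.6 and 91.5 TPM. The sum of the first was higher in TPM in both libraries, but in expected counts the second was higher, at 1025 and 1075 against 869 and 864. Reads are divided between these groups, since Hist1h3i shares 53.5% of its windows with Hist1h3d of the second. Hist2h3b has no window of 100 coding bases of its own.

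H2B genes summed to 185 and 134 TPM, beside 180 and 204 TPM for H3, so the order of these types differed between the libraries. Hist3h2ba led the H2B genes in replicate 1 and in the mean, and Hist1h2bc led them in replicate 2. Hist3h2ba measured 91.8 and 32.9 TPM (62.3 ± 41.6, SD, n = 2), the widest spread for its mean among the leading genes of the 5 types. Hist1h2bc measured 42.8 and 41.3 TPM, Hist1h2bj 15.5 and 13.0 TPM, and Hist2h2be 4.81 and 7.36 TPM. The type made up 2.84% and 2.01% of the class, or 15.1% and 10.8% without Hist1h2ap, and 10 of its 15 genes were detected. Of the 3 names without a row, all are H2B genes, so the H2B sum misses them.

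The linker histones H1 each encode a protein of their own, with 49.3% to 86.5% identity between pairs. Hist1h1e measured 53.5 and 47.6 TPM (50.6 ± 4.15, SD, n = 2) and Hist1h1b 31.2 and 34.7 TPM. Hist1h1c measured 9.41 and 8.14 TPM, Hist1h1d 2.97 and 3.49 TPM, and Hist1h1a 1.98 and 3.42 TPM. The testis gene Hist1h1t had no count in replicate 1 and 1 in replicate 2. H1 took 1.52% and 1.46% of the class, or 8.10% and 7.84% without Hist1h2ap. The order of the 5 expressed H1 genes was the same in both libraries. Their coding sequences were the easiest to tell apart, with a median of 95.1% of 100-base windows unique, against 14.1% in H2A genes.

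**Figure D2:**
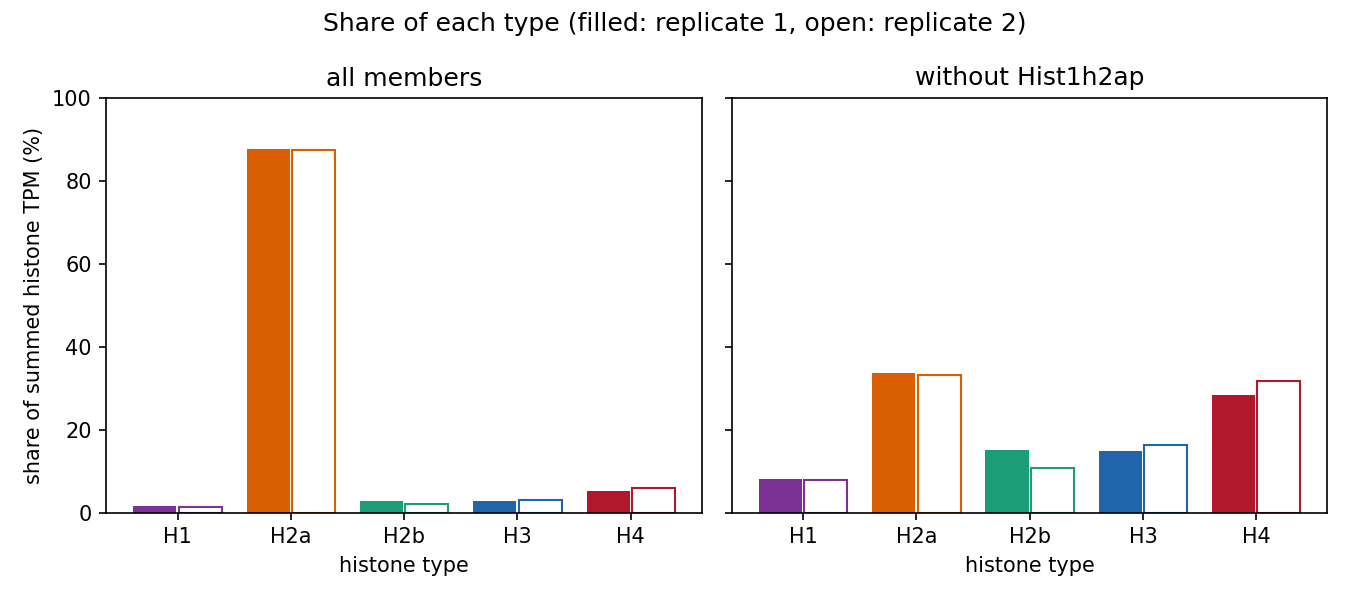
Share of the summed TPM of the class held by each histone type, in percent, with filled bars for replicate 1 and open bars for replicate 2. H2a takes 87.6% when all genes are summed (left) and 33.8% and 33.2% when Hist1h2ap is left out (right), where H4 takes 28.2% and 31.8%.

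No count was found in either library for 4 genes, namely Hist1h2aa, Hist1h2ba, Hist2h2ab and Hist1h4m. A count of 0 allows up to 3 counts, which is 0.322 to 0.389 TPM in replicate 1 and 0.359 to 0.434 TPM in replicate 2 for these lengths, for counting error only. The authors' upper credibility bounds, which allow for divided reads, reached 1.72 and 2.04 TPM for Hist1h4m, 0.913 and 0.780 TPM for Hist2h2ab, 0.632 and 0.669 TPM for Hist1h2ba, and 0.377 and 0.414 TPM for Hist1h2aa. Hist1h4m shares 88.1% of its windows with Hist1h4n. Hist1h2aa and Hist1h2ba are the testis H2A and H2B genes and stand together, away from the rest of the Hist1 genes. The 5 germline variants with a row, such as H1foo, were also without a count. In all, 13 genes were below 1 TPM in both libraries, 2 only in replicate 1 and 1 only in replicate 2.

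By cluster, Hist1 held 96.1% and 97.3% of the TPM of the class, Hist2 1.83% and 1.87%, Hist3 2.02% and 0.822%, and Hist4 0.00797% and 0.0100%. With Hist1h2ap left out, Hist1 still held most of the remainder, with a mean share of 82.4%. Within Hist1, gaps of over 100000 bases divide the genes into 4 blocks. The first, of 17 genes (chr13:21715763-21837530), summed to 5480 and 5630 TPM, but to 181 and 197 TPM without Hist1h2ap. The second held 5 genes, all detected, at 109 and 126 TPM. The third held 28 genes (chr13:23531050-23764406), led by Hist1h4d, at 681 and 739 TPM, and 24 were detected. The last held the testis pair and no counts.

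H2A and H2B genes often stand back to back, and 12 such pairs were found, with starts 176 to 306 bases apart. Most pairs differed in level. In TPM the H2a gene was higher in both libraries in 7 pairs, the H2b gene in 3, and neither in both libraries in 2. Hist1h2ae measured 174 and 179 TPM and its partner Hist1h2bg 4.94 and 5.17 TPM, a ratio of 35.0 between means. The opposite order held for Hist1h2ac, at 3.83 and 4.47 TPM, beside Hist1h2bc at 42.8 and 41.3 TPM. Hist2h2ac and Hist2h2be were the closest pair in TPM, with a ratio of 1.35. In expected counts their order turned, with 71.7 and 104 for Hist2h2ac and 328 and 450 for Hist2h2be. Their quantified lengths were 520 and 2620 bases, so the order of this pair depends on the annotated length. Hist1h2ap stands beside Hist1h2br, at 0.130 and 0.270 TPM, but a further transcript of Hist1h2br was counted in another row at 5.25 and 6.78 TPM.

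**Figure D3:**
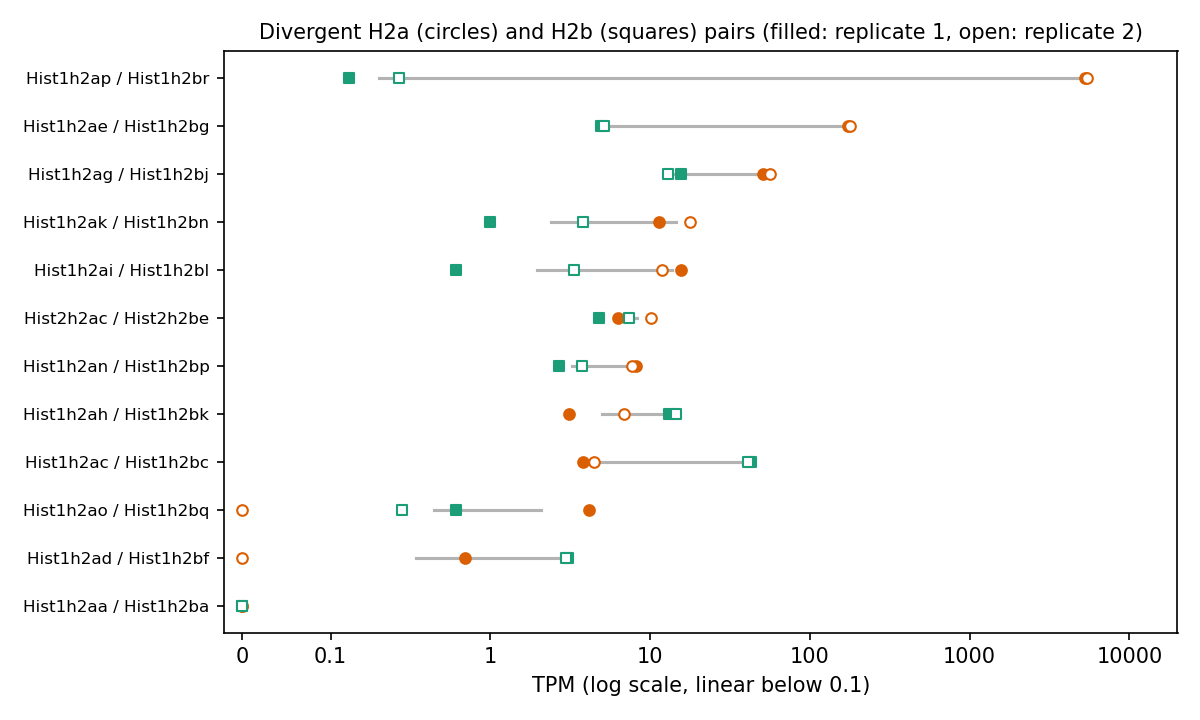
TPM (log scale, linear below 0.1) of the H2a gene (circles) and the H2b gene (squares) in the 12 divergent pairs, filled for replicate 1 and open for replicate 2, with a line between the means. In 7 pairs the H2a gene is higher in both libraries, and in 3 the H2b gene is.

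The replication-independent variant histones, which are not made in S phase alone, give a scale for these levels. The 12 variants were all detected and summed to 9570 and 9316 TPM, so the replication-dependent genes stood at 0.681 and 0.717 of them, and at 0.128 and 0.133 without Hist1h2ap. The balance differed between types. H1 genes stood at 0.231 and 0.270 of the H1 variants, H1f0 (402 and 339 TPM) and H1fx (26.4 and 22.4 TPM). H3 genes stood at 0.0380 and 0.0470 of H3f3a (2512 and 2257 TPM), H3f3b (1456 and 1361 TPM), H3f3c (497 and 403 TPM) and the centromeric Cenpa (279 and 319 TPM). H2A genes exceeded their variants by a ratio of 1.30 and 1.27, and stood at 0.0939 and 0.0893 of them without Hist1h2ap. In expected counts, which are not divided by length, the order turned, and H2A genes stood at 0.472 and 0.454 of their variants with Hist1h2ap included. The H2A variants were H2afz (2484 and 2683 TPM), H2afv (765 and 739 TPM), H2afx (441 and 467 TPM), H2afy (395 and 431 TPM), H2afy2 (260 and 251 TPM) and H2afj (51.8 and 46.0 TPM). Whether RNA without a poly(A) tail entered the libraries in proportion is not stated in the labels. The signal recognition particle RNA Rn7s1, which has none, measured 4035 and 4430 TPM, and Rn7s2 measured the same to the nearest TPM. Other RNAs listed as without a tail were lower. Rn7sk measured 112 and 97.1 TPM, Rpph1 31.1 and 39.6 TPM, and Rmrp 2.52 and 2.29 TPM. Terc stayed at 0.570 and 0.510 TPM. The part of priming in the balance was not tested.

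**Figure D4:**
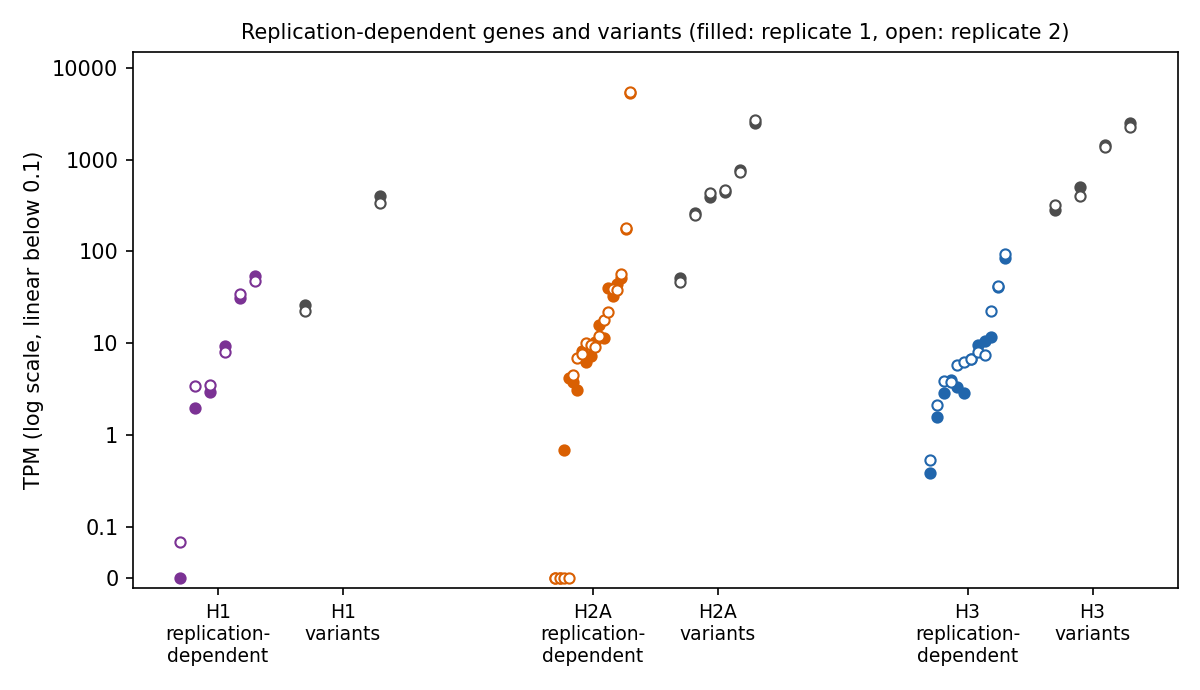
TPM (log scale, linear below 0.1) of replication-dependent H1, H2A and H3 genes (coloured) and of the variants of the same type (grey), filled for replicate 1 and open for replicate 2, ordered by level within each group. Hist1h2ap is the only replication-dependent gene above 1000 TPM, and no H3 gene of the class reaches the lowest H3 variant.

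The annotated 3′ end differs between the genes and enters each level through its length. M21 places the end past the stem-loop in all 44 genes that have it, by 3 bases in Hist1h2ap, 23 in Hist1h2ag, 151 in Hist1h2ae, 169 in Hist3h2ba and 770 in Hist1h4d. The quantified model was shorter for Hist1h4d (393 bases, against 1138 in M21) and for Hist1h2ae (460 against 704). Among the 44 genes with equal lengths, the 17 whose model ends at most 100 bases past the stem-loop had a median of 8.07 TPM, and the 10 with longer ends 7.59 TPM. The 14 that end within 30 bases of the stop codon had a median of 6.46 TPM. The highest genes of these classes were at 5366 TPM (Hist1h2ap), 62.3 TPM and 90.0 TPM. More than 1 transcript was quantified in 4 genes, all H2B genes of the Hist1 cluster. Hist1h2be-203 held 76.9% and 79.5% of Hist1h2be, at 1.77 and 2.11 TPM.

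Between the 2 pools, most histone genes differed by less than 1.5-fold. Ratios are log2 values of replicate 2 over replicate 1 after TMM scaling of counts, for the 39 members and 14385 genes with at least 1 CPM in both libraries (CPM is the count scaled to library size). The histone genes had a median of 0.06 (range -1.56 to 1.00), and the median of all genes was 0.00. A level at least 1.5-fold higher in replicate 2 was seen in 4 of 39 histone genes, beside 4.03% of all genes. At least 1.5-fold higher in replicate 1 were 2 of 39, beside 9.4% of all genes. These are 10.3% and 5.13% of the 39, the first above and the second below the share of all genes, from few genes each. Hist1h2ap had a ratio of -0.04 and Hist1h4d of 0.08. Spike-in scaling moved the median of all genes to 0.82 and that of the histone genes to 0.85, so directions here are relative to the other genes.

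Hist2h4, Hist1h3d, Hist1h3b and Hist2h2ac were the 4 genes higher in replicate 2. Hist2h4 had 225 and 427 counts and a log2 ratio of 1.00 (95% interval 0.77 to 1.24, exact binomial, counting error only), and its posterior SD of the count was 0. Hist1h3d had 145 and 252 counts and a ratio of 0.87 (0.58 to 1.18). Hist1h2ah and Hist1h3g, with ratios of 0.99 and 0.97, rested on 25.6 and 25.8 counts in replicate 1, with a posterior SD of 64.7% and 22.5% of those counts. The H4 genes together had a ratio of 0.20 (0.13 to 0.27) on summed counts, and the H2B genes -0.41 (-0.50 to -0.33). The H4 sums of 3222 and 3501 counts include those of Hist2h4, and the ratio without that gene was not computed.

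The Hist3 genes were the 2 that were higher in replicate 1. Hist3h2ba had 1277 and 410 counts, a log2 ratio of -1.56 (-1.72 to -1.40). Hist3h2a had 2203 and 1089 counts, a ratio of -0.94 (-1.04 to -0.83). Without Hist3h2ba the H2B genes together had a ratio of 0.09 (-0.01 to 0.19). The next lowest gene, Hist1h3h, had 89.2 and 56.9 counts and a ratio of -0.55 (-1.07 to -0.07). Its posterior SD was 19.5% and 32.0% of those counts, which that interval does not cover, and 8.01% of its coding windows were unique. On spike-in scaling Hist3h2ba stood at -0.74 and Hist3h2a at -0.12, below the median of 0.82 of all genes. The M21 transcript of Hist3h2a shares 29.8% of its windows with its neighbour Trim17, which measured 0.690 and 0.350 TPM. Summed over the class, the ratio was -0.06. It was -0.13 (-0.16 to -0.10) without Hist1h2ap, and 0.06 (0.02 to 0.09) when the Hist3 genes, the lowest of the 39, were left out as well.

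Markers of other cells moved between the pools as well. All 14 neuron markers were detected, at 2455 and 1599 TPM in sum, and all 14 were lower in replicate 2, with a median ratio of -0.95. The Hist3 genes were lower in replicate 2 too, as were most macrophage, progenitor, hindbrain and mesenchyme markers. Among the neuron markers, Tubb3, the highest in level, measured 727 and 473 TPM. Their ratios ran from -1.73 in Ina (197 and 63.0 TPM) to -0.16 in Elavl4. All 6 macrophage markers were lower too (74.1 and 44.9 TPM in sum). The 12 progenitor markers summed to 2661 and 2266 TPM and the 8 red cell markers to 18411 and 20060 TPM, with median ratios of -0.13 and 0.03. Of 10 hindbrain markers 8 were detected, and Egr2 and En2 were not. Of those 8, 7 were lower in replicate 2 (median ratio -0.36), with Hoxa2 lowest at -0.86, and Hoxb1 was higher at 0.49. Egr2 and En2 were also higher in replicate 2, on few counts. Egr2 had 35 and 118 counts (ratio 1.77), and En2 had 37 and 62 (0.79). Of 6 mesenchyme markers 5 were lower (median -0.17), with Col1a1 lowest at -0.98 and Col3a1, the highest in level, at -0.15. Pdgfra was higher, at 0.16. Of 6 endothelium markers 3 had a ratio above 0 (median 0.03). The part of these cells in the histone values was not tested.

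**Figure D5:**
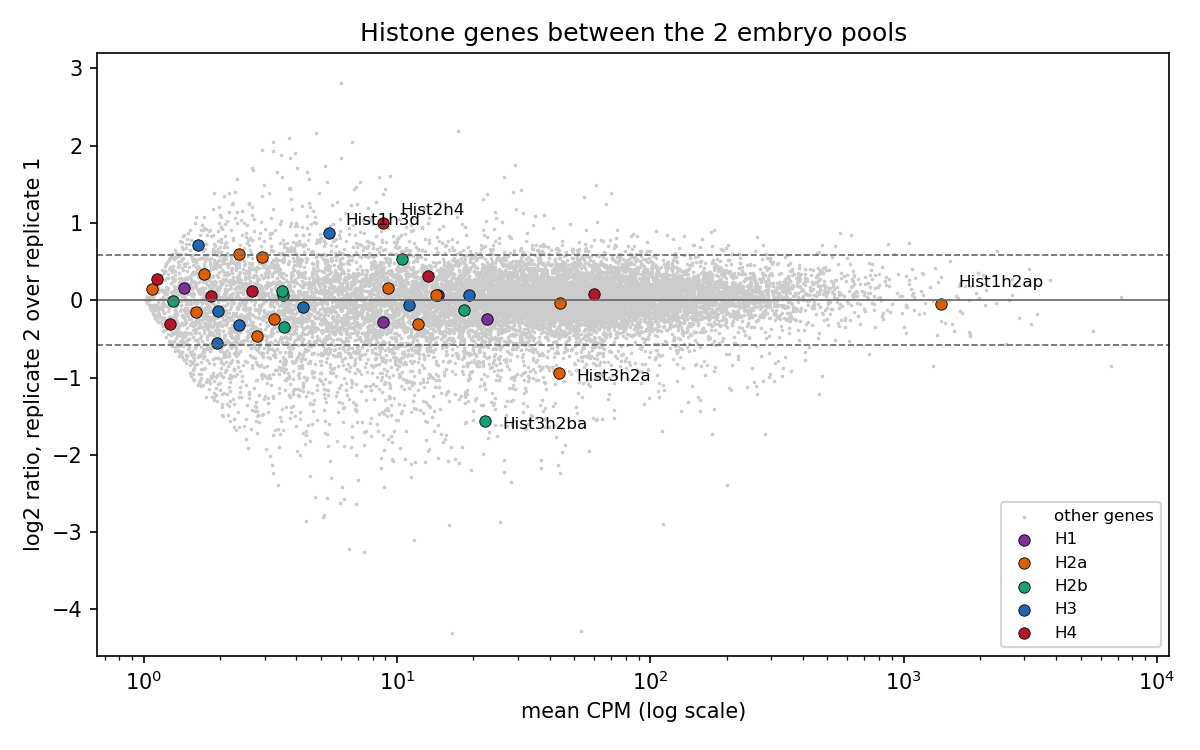
Log2 ratio of replicate 2 over replicate 1 against mean CPM (log scale) for genes with a CPM of at least 1 in both libraries, with histone genes coloured by type and other genes grey. Dashed lines mark 1.5-fold. Hist3h2ba and Hist3h2a lie below the lower line at -1.56 and -0.94, and Hist2h4 lies at 1.00.

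The genes that make, cut and handle histone mRNA were detected wherever they had a row. Of 21 genes for 3′ processing and decay, 19 had a row and all 19 were detected, while Zcchc6 and Zcchc11 had none (1669 and 1913 TPM in sum). They included Slbp at 209 and 275 TPM, the shared splicing core protein Snrpb at 700 and 767 TPM, and Srrt, a partner of the cap-binding complex, at 103 and 117 TPM. Lsm10 (37.5 and 41.5 TPM), Lsm11 (6.85 and 6.72 TPM) and Zfp473 (2.88 and 3.36 TPM), which belong to the U7 particle that directs the cut, were lower. Of the 12 genes linked to histone gene transcription all were detected. Npat measured 10.9 and 16.2 TPM, its activators Ccne1 and Cdk2 52.9 and 77.8 TPM and 68.1 and 85.4 TPM, and Hinfp, a factor for H4 promoters, 18.4 and 19.0 TPM.

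S phase genes and histone chaperones mostly had ratios above 0, while the histone genes were evenly divided. All 16 S phase genes had a ratio above 0, with a median of 0.35, from Gins1 at 0.02 to Pola1, a subunit of the polymerase that starts new strands, at 0.58. Pcna, the sliding clamp, measured 248 and 337 TPM. Of 18 chaperone genes 17 had a ratio above 0, with a median of 0.32, and the sums were 3218 and 4527 TPM. Nasp, a carrier of H3 and H4, measured 142 and 247 TPM (ratio 0.72), and Npm1, an abundant nucleolar chaperone, 555 and 1059 TPM (0.85). Slbp had a ratio of 0.30 and Npat of 0.35. Among the histone genes 20 of 39 had a ratio above 0, as had 7173 of 14385 genes. The 12 variants had a median of -0.15, and 4 of them were above 0. With 2 pools, none of these differences between lists was tested.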

How the data were processed

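Total RNA over 200 nucleotides from 2 pools of hindbrain was analysed, with 1 gene table and 1 transcript table for each library. Per the file headers, each table holds an expected count (shared reads are split between genes), TPM, a posterior mean TPM and a posterior SD. Isoform percent values are in the transcript tables, per the file headers. The deposited file notes name assembly mm10 and annotation M4; aligner and quantifier: not given in the sources used here. Effective length was the length minus 99 bases, so short genes are sensitive to their annotated ends.

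Symbols and coordinates came from GENCODE M21 on mm10, promoters from RefSeq GRCm38.p6. Sharing between genes was measured with 100-base windows over all M21 transcripts. Expected counts were rounded and scaled with edgeR 4.0.16 (R 4.3.3), TMM, prior count 2 and no covariates, among genes with at least 1 CPM in both libraries. The TMM scaling was checked on simulated counts with equal numbers of genes raised and lowered. That setting held no overall shift, so it cannot decide between TMM and spike-in scaling. Intervals of ratios were 95% exact binomial (Clopper-Pearson, scipy 1.17.1) and, like the limit of 3 counts, cover counting error only. Alternatives used DESeq2 1.42.0 size factors, total counts, spike-ins, other prior counts and filters, other units, and each library left out. Python 3.11.15 was used with biopython 1.88, pandas 2.3.3, matplotlib 3.10.9 and numpy 2.4.6.

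Genes named were the 3 highest of each type, every H1 gene, members outside Hist1 with at least 1 TPM in both libraries, the 3 highest and 3 lowest ratios among members with at least 20 counts in each library, members without a count, the highest of the other lists, and the 5 highest transcripts with ends past the stem-loop. Members of divergent pairs, genes past 1.5-fold and Trim17 were named after their values were seen. The genes and lists were chosen with earlier results of these data known. With 1 group there was no test.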

Additional observations from a re-analysis of the deposited data

Results flagged for a closer look

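Signal was present in histone rows that the choice of genes left out. The pseudogene Hist1h2aj, an unprocessed copy of an H2A gene, measured 12.5 and 24.6 TPM (mean 18.6). The processed pseudogenes Hist1h2al and Hist3h2bb-ps measured 1.73 and 2.16 TPM (mean 1.95) and 0.770 and 0.850 TPM (mean 0.810). Transcripts of H2B genes were also counted in rows of other gene identifiers. Hist2h2bb-201 measured 7.49 and 8.19 TPM (mean 7.84), Hist1h2br-202 5.25 and 6.78 TPM (mean 6.02), and Hist1h2bq-201 0.460 and 1.29 TPM (mean 0.875). These values stay outside the sums of the class.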

How the results depend on the processing

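No paired analysis was possible because the series has 1 group. Of the 102 recomputed values, only those of the median ratio between pools had a sign that could change, and none did. The shares, sums and counts cannot be negative, so they could not change direction. A mean of 2 libraries cannot move by more than their SD when 1 is left out, so the libraries are given singly where they differ most: the share of Hist3 was 2.02% in replicate 1 and 0.822% in replicate 2. Values that moved by more than the SD (for the median ratio, the counting interval), or counts by more than 1.5 times, follow. Detection ranged from 49 to 50 genes with either library alone and was 30 at 5 TPM. As shares of counts, H1 was 2.67%, H2a 85.8%, H2b 3.70%, H4 5.0%, Hist1 93.4%, Hist2 2.93%, Hist3 3.63%, Hist4 0.0626% and Hist1h2ap 78.0%. Without Hist1h2ap, H1 was 7.97%, H2a 33.5%, H2b 13.0%, H3 15.6%, H4 29.9999%, Hist1 82.4%, Hist2 9.92%, Hist3 7.59% and Hist4 0.0482%. With full length, H1 was 1.63%, H2a 87.55%, Hist2 1.94% and Hist4 0.0109%. With posterior mean TPM, H2a was 87.53% and Hist1h2ap 81.2%. The summed TPM was 6457 by posterior means, 7370 over annotated genes alone and 1232 without Hist1h2ap. The ratio to variants was 0.246 in counts and 0.131 without Hist1h2ap. The median ratio between pools was 0.85 with spike-ins, 0.074 without a filter and 0.12 in TPM. Histone genes at least 1.5-fold higher in replicate 2 were 28 of 39 with spike-ins and 12 of 60 without a filter. They were 7 of 47 with at least 20 counts, and 0 of 39 at 2-fold. Those higher in replicate 1 were 1 of 39 with spike-ins, 6 of 60 without a filter and 1 of 39 at 2-fold. The share of all genes was not computed for these settings. With spike-ins the median of all genes was 0.82, itself past 1.5-fold, so the 28 do not set histone genes apart. The median without Hist1h2ap and the Hist3 genes, chosen after seeing the data, was 0.07. Values of near-identical copies are uncertain, and 14 of 64 genes have no coding window of their own.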
